A study of Homo sapiens with 6 samples.

Results

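Epithelial-to-mesenchymal transition (EMT) is followed here through 10 genes, the transcription factors Snai1, Snai2, Zeb1, Zeb2, Twist1 and Twist2 and the markers Cdh1, Cdh2, Vim and Fn1. They were chosen by name, as the rows of the count table whose symbol equals one of these. The table of 22989 genes has a row for 9 of the 10, and Twist2 was not analysed here. The RNA-seq libraries comprised 3 with the label LINC00115 KD and 3 with the label WT, all described as paclitaxel (PTX)-resistant breast cancer stem cells (BCSC) of MDA-MB-231, a human triple-negative breast cancer line. In the study these are the cells sorted for high aldehyde dehydrogenase activity, LINC00115 is a long non-coding RNA, and the knockdown (KD) was made with short hairpin RNAs that were compared with a control hairpin (shC). The labels call the controls WT and number the KD samples sh115-1 to sh115-3, whereas the study uses sh115-1 and sh115-2 as names of separate hairpins and names sh115-2 for its expression profiling, so which hairpin each KD library carried is not settled by the labels. An effect of the hairpin vector and an effect of losing LINC00115 cannot be told apart in this design.

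In EMT, epithelial cells lose their junctions and polarity and take on a migratory, mesenchymal shape. SNAIL, ZEB and TWIST proteins bind E-box motifs and repress epithelial genes, above all the E-cadherin gene Cdh1, while the mesenchymal genes N-cadherin (Cdh2), vimentin (Vim) and fibronectin (Fn1) become active. MDA-MB-231 cells are known as a mesenchymal-like line with much vimentin and little E-cadherin, and EMT is often linked to breast cancer stemness and spread.

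The gene symbols of the table are those of mouse genes, although the labels give human cells. They include 4648 Gm and 1129 Rik names, which a human annotation does not use. Which species the reads came from was not tested, so no level here can be taken as that of a human transcript. Symbols are printed as the table has them and no genome positions are given. LINC00115, a human gene name, had 0 rows, so the loss of the target gave no check of the labels, and every direction rests on them. The libraries held between 36979221 and 38799331 counts. A library at 0 counts allows up to 3 counts, or between 0.0776 and 0.0817 normalized CPM (counts over the TMM-adjusted library total, scaled to one unit for all libraries), which covers counting error only. Of 9 genes fixed as marks of MDA-MB-231-like cells (Vim, Cd44, Cav1, Cav2, Plau, Mmp14, Msn, Axl and Ets1), all 9 were tested. Their summed level lay between 6895 and 7479 CPM in every library. Vim, itself a gene followed here, made up a mean of 3418 CPM of the sum in WT and 3736 CPM in KD. At an adjusted p under 0.05 (edgeR), 5 of the 9 were higher in KD and 1 was lower, Plau (297 to 196 CPM), while 3 did not pass. Whether the libraries came from MDA-MB-231 cells was not tested by this sum. WT replicate 3 stood apart in a few surface-epithelium genes, with 92 counts of Krt5 and 85 of Muc5b against 0 in the other WT libraries, and KD libraries held lung and kidney genes that no WT library held, as given beside Cdh1. The labels do not say whether replicates came from separate cultures, so the p-values measure the spread between these libraries, which may be technical.

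The pattern in the 9 genes was mixed. Of the 7 genes with enough counts to be tested, Snai1 and Fn1 fell and Zeb2, Twist1, Vim and Cdh1 rose in the KD libraries at an adjusted p under 0.05, while Zeb1 did not pass. Among all 13497 genes tested, 73.4% passed the same test, 36.7% higher and 36.7% lower, so that 6 of 7 was close to the share among all genes. At the study's thresholds, which add a fold change over 2, 1 gene (Cdh1) was called higher and 0 were called lower, against 10.2% and 9.98% of all genes (20.2% in either direction). Those 0 came from edgeR's quasi-likelihood test, and DESeq2's Wald test also called 0. At an unadjusted p under 0.05, 2 were lower, against 37.5% of all genes. The median absolute log2 fold change was 0.4456 for the 7 genes and 0.4527 for all genes tested. The groups did not overlap for 6 of the 7 genes, against 75.6% of all genes tested. In bulk RNA, fewer cells that express a gene and less of its RNA per cell cannot be told apart.

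**Figure D1:**
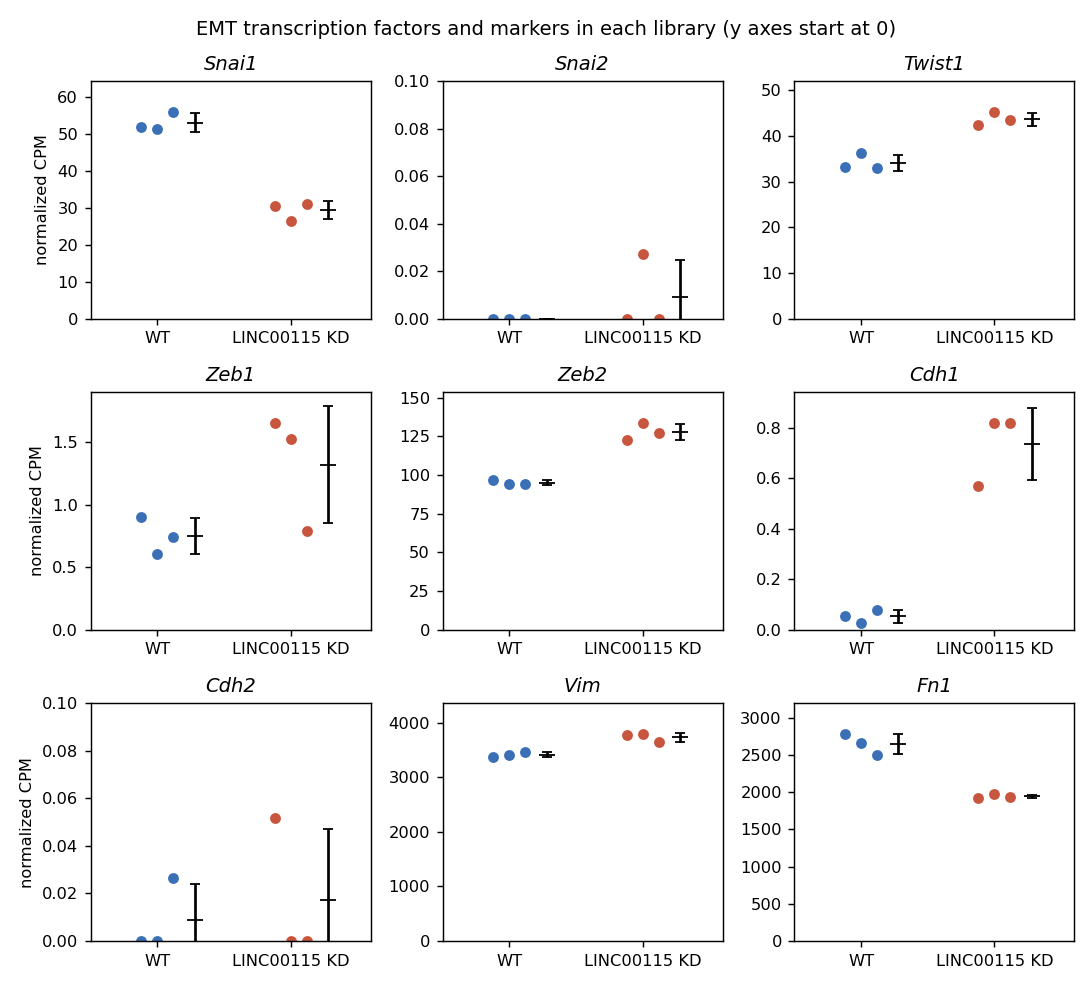
Normalized CPM (y axis, from 0) of each of the 9 genes in every library, WT in blue and LINC00115 KD in red. Bars give the mean and SD of 3 libraries and are cut at 0 for Snai2 and Cdh2. Snai1 and Fn1 were lower in every KD library, Zeb2, Twist1, Vim and Cdh1 were higher in every KD library, and the groups overlapped for Zeb1, Snai2 and Cdh2.

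Of the SNAIL family, zinc-finger repressors that bind the Cdh1 promoter early in EMT, only Snai1 was well counted. Snai1 had 1949, 1935 and 2109 counts in WT replicates 1 to 3 and 1176, 971 and 1177 counts in the KD replicates. Every KD library lay below every WT library by a gap far wider than the spread within either group. Its level fell from 52.9 ± 2.51 to 29.3 ± 2.47 normalized CPM, or 55.3% of the WT level (mean ± SD of 3 libraries, as throughout). The log2 fold change was -0.85 (standard error 0.065, 95% interval -0.99 to -0.72, adjusted p = 7.14e-14, edgeR). Among all genes tested, 73.5% had a smaller absolute change. Against the null of a fold change of 1.5, Snai1 stayed past the threshold (adjusted p = 0.000119, edgeR's glmTreat), but its interval ended short of a fold of 2.

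Snai2, known as SLUG and the SNAIL protein most tied to basal breast cells, had 0 counts in 5 libraries and 1 count in KD replicate 2, so it was at or under the limit of 3 counts in every library and was not tested. Of the reads on both SNAIL genes, the share of Snai2 in WT was 0 of 1935 to 0 of 2109, with exact 95% binomial upper limits of 0.175% to 0.19%. Snai3 reached 4 counts in WT replicate 1 and at most 1 count elsewhere.

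Twist1, a basic helix-loop-helix factor that acts in dimers with E proteins, went the other way from Snai1. It had 1252, 1366 and 1246 counts in WT and 1641, 1661 and 1650 in the KD libraries, and the groups did not overlap. The level rose from 34.1 ± 1.78 to 43.7 ± 1.43 normalized CPM, 1.28-fold (log2 fold change 0.36, standard error 0.062, 95% interval 0.23 to 0.48, adjusted p = 4.80e-06, edgeR).

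The ZEB factors are large zinc-finger repressors held down in epithelial cells by the miR-200 family. Zeb2 had 3643, 3566 and 3563 counts in WT and 4757, 4903 and 4829 in the KD libraries. All 3 KD values lay above all WT values, and the WT libraries were close together. The level of Zeb2 rose from 95.1 ± 1.34 to 128 ± 5.32 normalized CPM, 1.34-fold (log2 fold change 0.43, standard error 0.043, adjusted p = 6.78e-11, edgeR). Zeb1 was counted on few reads, 34, 23 and 28 in WT and 64, 56 and 30 in the KD libraries. KD replicates 1 and 2 lay above WT and KD replicate 3 lay within the WT range. The log2 fold change of Zeb1 was 0.81 (standard error 0.40, 95% interval -0.0038 to 1.63, adjusted p = 0.0680, edgeR), an interval that holds both no difference and a rise of over 3-fold. Without KD replicate 3 it was 1.09 and passed both thresholds (adjusted p = 0.0250), and without KD replicate 1 it was 0.63 (adjusted p = 0.244). Zeb1 took 0.641% to 0.925% of the reads on the pair of ZEB genes in WT and 0.617% to 1.33% in KD, shares that are not corrected for length. No row of the table carried any of the 9 names searched for the miR-200, miR-205 and miR-34 genes, so these regulators were not analysed here.

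**Figure D2:**
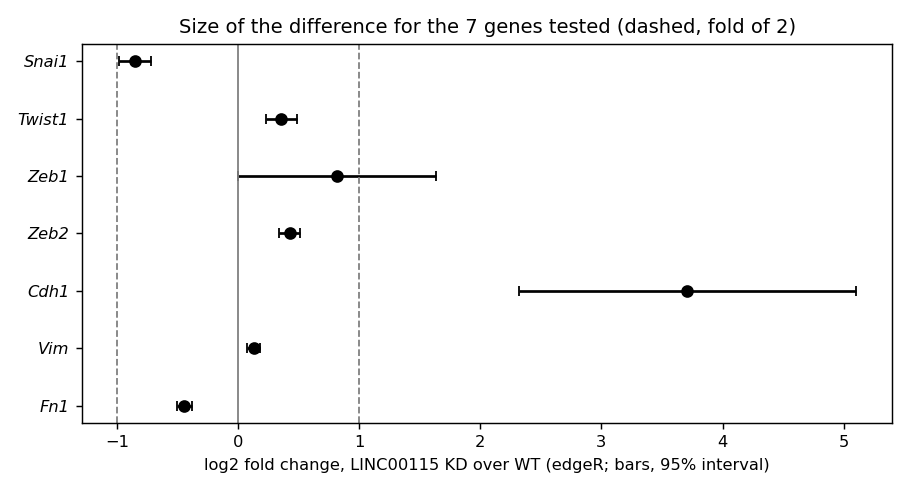
Log2 fold change of LINC00115 KD over WT (x axis) with its 95% interval from edgeR for the 7 genes tested, and dashed lines at a fold change of 2. Snai1 and Fn1 lie below 0, the interval of Zeb1 reaches 0, and Cdh1 lies beyond a fold of 2 with the widest interval, on few counts.

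The cadherins that give the classical E- to N-cadherin switch were both nearly absent. Cdh1 had 2, 1 and 3 counts in WT and 22, 30 and 31 counts in KD. Every KD library lay above every WT library, but all 6 values were small, at 0.0265 to 0.0794 CPM in WT and 0.569 to 0.817 CPM in KD. Summed over the libraries, the 83 KD counts against 6 WT counts gave a ratio of 13.8 (exact 95% interval 6.09 to 38.7, counting error only). The fitted log2 fold change of Cdh1 was 3.71 (standard error 0.68, adjusted p = 1.11e-05, edgeR). Without WT replicate 3 it was 4.10 (adjusted p = 0.000123, edgeR). Cdh1 passed the filter on low counts only through the KD libraries, where it was high, so it could enter the test only with a difference. With at least 10 counts required in every library it was not tested. Cdh2 had 0, 0 and 1 counts in WT and 2, 0 and 0 in KD. No difference in Cdh2 was detectable at this depth, and no ratio of Cdh1 to Cdh2 could be given because 4 libraries had no Cdh2 count.

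Of 38 epithelial genes fixed as a list, 20 had at most 10 counts in every WT library, as Cdh1 did. Their summed counts were 20 to 33 in WT and 186 to 218 in KD, but genes picked for a low WT count have little room to fall. The 11 mesenchymal genes picked in the same way had summed counts of 18 to 43 in WT and 237 to 314 in KD. Most of that KD sum came from Timp3 (135, 188 and 206 counts) and Lox (58, 53 and 68). Of the 20 epithelial genes, 11 were higher in every KD library and 1 lower, and of the 11 mesenchymal genes 4 and 0. Other junction and surface genes were well counted, such as Tjp1, a tight-junction scaffold, with 8951 to 9356 counts in WT and 9906 to 10248 in KD. Epcam, an epithelial adhesion molecule, had 0 to 1 counts in WT and 1 to 5 in KD. The claudin Cldn3 had 0 counts in WT and 7, 8 and 8 in KD, and Cldn4 had 0, 0 and 1 and then 12, 9 and 6. Krt7, a keratin of simple and glandular epithelia, had 3, 4 and 1 counts in WT and 68, 49 and 74 in KD.

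Markers of lung and kidney cells moved with Cdh1. Of 18 lung genes, 16 were tested. Of these 16, 14 had all KD libraries above all WT libraries and 0 had all below, against 37.8% in each direction among all genes tested. However, 13 of the 18 had at most 10 counts in every WT library and so had little room to fall. Of the 16 tested, 11 passed the filter on low counts only through the KD libraries. Over the 18, the summed level was 27.4 to 37.9 CPM in WT and 123 to 136 CPM in KD. The 8 secretory and alveolar genes at 0 counts in all WT libraries were Scgb1a1, Scgb3a1, Scgb3a2, Sftpa1, Sftpb, Sftpc, Sftpd and Slc34a2. Of 16 kidney tubule genes, 12 were tested, of which 11 were higher in every KD library and 1, Cubn, was lower. Here too, 13 of the 16 had at most 10 counts in every WT library and little room to fall. Of the 12 tested, 10 passed the filter on low counts only through the KD libraries. Sums over the 16 were 9.45 to 10.1 CPM in WT and 31.1 to 34.5 CPM in KD. Kap, Umod, Miox, Acsm2, Cdh16, Slc22a6, Slc5a2 and Aqp2 were at 0 in WT, the last with at most 4 counts in KD. Slc34a1, a phosphate carrier of the tubule, had 1, 0 and 0 counts in WT and 137, 112 and 160 in KD. Both tissues have epithelia that express E-cadherin. The part of such cells in the Cdh1 counts was not tested.

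**Figure D3:**
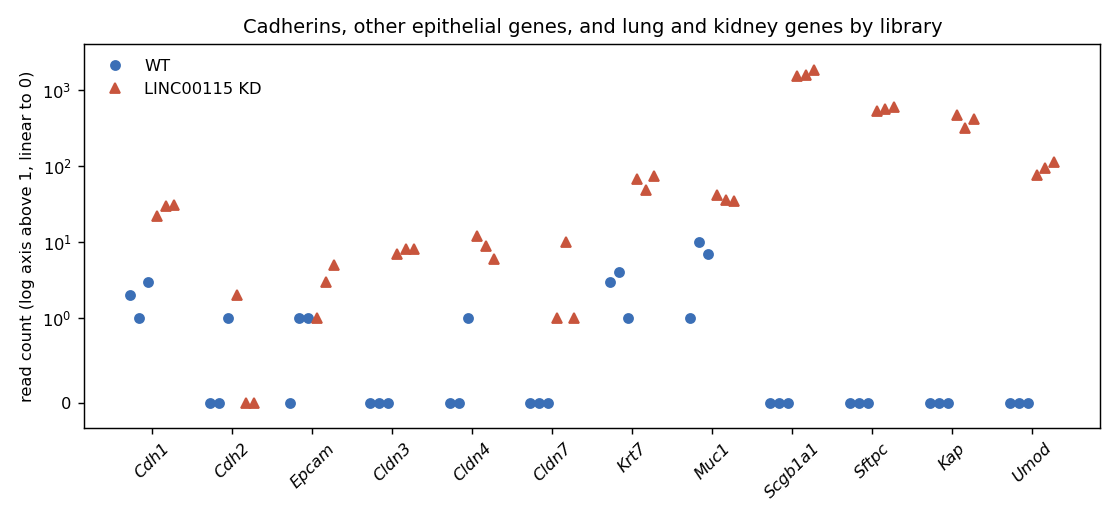
Read counts per library (y axis, logarithmic above 1 and linear to 0) of the cadherins Cdh1 and Cdh2, of 6 other epithelial genes, of the lung genes Scgb1a1 and Sftpc and of the kidney genes Kap and Umod. Blue circles are the 3 WT and red triangles the 3 LINC00115 KD libraries. Cdh1 lay between 1 and 3 counts in WT and between 22 and 31 in KD, Cdh2 stayed at 2 or fewer, and the lung and kidney genes shown were at 0 in all WT libraries.

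Among epithelial genes with more reads, some rose and others fell. The keratins Krt8 and Krt18, partners in one filament, rose from 472 to 752 and from 129 to 236 normalized CPM (log2 fold changes 0.67 and 0.87, adjusted p = 1.38e-19 and 6.67e-21, edgeR). The membrane protease Prss8 fell from 5.49 ± 0.302 to 1.27 ± 0.325 CPM (log2 fold change -2.11) and the tight-junction protein Ocln from 2.33 to 0.773 CPM (log2 fold change -1.59), with 78, 70 and 116 counts in WT and 27, 18 and 43 in KD. Of 19 epithelial genes tested, 11 rose, 4 fell and 4 did not pass, with 4 called higher and 2 lower, and the median log2 fold change was 0.27, against -0.0061 for all genes tested. Among all genes tested, 36.7% rose, 36.7% fell, and 10.2% and 9.98% were called higher and lower. Of the 4 called higher, 3 (Krt7, Erbb3 and Muc1) reached the low-count cutoff in all KD but not in all WT libraries.

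Vim, the intermediate filament protein of mesenchymal cells, was abundant in all libraries and changed little. It had 126885, 129052 and 131022 counts in WT and 145878, 139205 and 138428 in KD, which is 0.342% to 0.348% and 0.361% to 0.376% of all counts. The groups did not overlap, and the difference was small. The level of Vim rose from 3418 ± 49.8 to 3736 ± 79.7 normalized CPM, 1.09-fold (log2 fold change 0.13, 95% interval 0.075 to 0.18, adjusted p = 5.05e-05, edgeR). Only 15.9% of all genes tested had a smaller absolute change.

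Fn1, an extracellular matrix protein bound by integrins, fell. Its counts were 104731, 100438 and 94657 in WT and 74532, 72342 and 73562 in KD. The lowest WT library lay well above the highest KD library, and the KD libraries were close together. The level fell from 2648 ± 138 to 1945 ± 22.9 normalized CPM, to 73.4% of WT (log2 fold change -0.45, standard error 0.031, 95% interval -0.51 to -0.38, adjusted p = 4.13e-15, edgeR).

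Vim and Zeb2 are also expressed by leukocytes, endothelial cells and fibroblasts, and Fn1 by fibroblasts. Among all genes tested, 37.8% were higher and 37.8% lower in every KD library than in any WT library, and nothing is read from counts near these shares. The counts of each list run over all its genes in the table, also those with too few reads to be tested. They are therefore not on the same footing as these shares, and the counts of tested genes are given last. The leukocyte genes Ptprc, Csf1r and Cd3e had at most 13, 3 and 0 counts in any library, while Cd68 had 1397 to 1925 in WT and 1639 to 1893 in KD. Of 14 leukocyte genes in the table, 4 were higher in every KD library and 1 lower, and their sum was 73.1 to 87.1 CPM in WT and 145 to 160 CPM in KD. S100a8, a calcium-binding protein gene also active in some epithelia, had the most counts of them in KD, with a mean of 33.0 CPM in WT and 95.2 CPM in KD. Lyz2, a lysozyme gene of myeloid cells and lung epithelium in mice, had 33, 52 and 5 counts in WT and 249, 250 and 247 in KD. Also among the 4, Cd74 had 46, 29 and 30 counts in WT and 127, 94 and 151 in KD. S100a9 had 0, 0 and 2 in WT and 50, 68 and 48 in KD. Of 12 endothelial genes, 5 were higher in every KD library and 2 lower, with sums of 9.77 to 11.7 and 66.4 to 67.8 CPM, of which Cdh5 held nearly all in KD, while Pecam1, Tek and Emcn had at most 19, 2 and 1 counts. Of 15 fibroblast genes, 3 were higher in every KD library and 4 lower, with sums of 272 to 292 CPM in WT and 145 to 151 CPM in KD, and Lum, Dpt, Tcf21, Thy1 and Mfap5 had at most 4 counts in any library. Pdgfra, the most counted of them, fell from 177 ± 9.92 to 74.5 ± 1.39 CPM (log2 fold change -1.25) and Col6a3 rose from 0.583 to 4.70 CPM. Of 10 smooth muscle genes, 5 were higher in every KD library and 1 lower, and their sums were 4.42 to 4.70 and 6.33 to 8.66 CPM. Of the leukocyte genes tested, 4 of 7 were higher in every KD library and 0 lower. For endothelial genes it was 2 and 2 of 6, for fibroblast genes 1 and 4 of 7, and for smooth muscle genes 3 and 0 of 5. Among these tested genes, 2 leukocyte, 2 endothelial and 2 smooth muscle genes passed the low-count filter only through the KD libraries. Only through WT passed 2 endothelial genes and 1 fibroblast gene. The part of such cells in the changes of Vim, Zeb2 and Fn1 was not tested.

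The genes around these 10 were read from lists of the known network, with the same fit. The counts of each list stand against the shares of all genes tested, 36.7% risen, 36.7% fallen, 10.2% called higher and 9.98% called lower. The genes named from a list are those with the largest changes past both thresholds and enough counts, and others were picked after their values were seen. The E proteins are the dimer partners of TWIST. Tcf3 and Tcf4 fell (log2 fold changes -0.44 and -0.38) and Tcf12 rose (0.16). In the list of other EMT transcription factors, 13 were tested, 7 rose, 5 fell and 1 did not pass, with a median of 0.16. Hmga2, a chromatin protein that activates Snai1 and Twist1, rose from 195 to 305 CPM (log2 fold change 0.64), and Sox9, a partner of SLUG in mammary stem cells, fell from 175 to 97.4 CPM (log2 fold change -0.85). Foxq1 was the 1 gene of this list past both thresholds, and it fell from 8.21 ± 0.498 to 2.48 ± 0.171 CPM (log2 fold change -1.73, adjusted p = 2.96e-11, edgeR).

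The ID proteins bind E proteins without binding DNA and so hold back TWIST and E-protein dimers, and all 4 of their genes fell. Id2 fell from 25.1 ± 1.16 to 4.35 ± 0.558 normalized CPM (log2 fold change -2.53, standard error 0.11, adjusted p = 6.71e-21, edgeR). Id2 counts were 894, 970 and 974 in WT and 144, 176 and 172 in KD, a separation of the groups far beyond their spread. Id3 fell to 56.9% of its WT level of 38.6 CPM (log2 fold change -0.81), Id1 fell from 102 to 92.1 CPM (-0.15), and Id4 fell from 12.7 to 6.35 CPM. The small fall of Id1 did not pass without KD replicate 2 (log2 fold change -0.096, adjusted p = 0.0901, edgeR). Id4 lay at a log2 fold change of -1.003, just past a fold of 2, and was not past it without WT replicate 1 (-0.96), WT replicate 2 (-0.98), KD replicate 1 (-0.97) or KD replicate 2 (-0.98).

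Epithelial transcription factors that oppose ZEB and SNAIL proteins did not move one way. Elf3 fell from 9.23 ± 0.364 to 2.03 ± 0.416 CPM (log2 fold change -2.18) and Grhl2, a direct repressor of Zeb1, rose from 2.96 ± 0.684 to 9.88 ± 1.53 CPM (log2 fold change 1.74, adjusted p = 3.10e-11, edgeR). Grhl2 counts were 140, 90 and 105 in WT and 388, 304 and 430 in KD, with no overlap. Esrp1, Ovol1 and Ovol2, which drive epithelial splicing and repress Zeb1, had at most 4 counts in any library. Over the list of ID proteins and epithelial factors together, 12 were tested, 4 rose, 7 fell and 1 did not pass, and the median log2 fold change was -0.48.

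**Figure D4:**
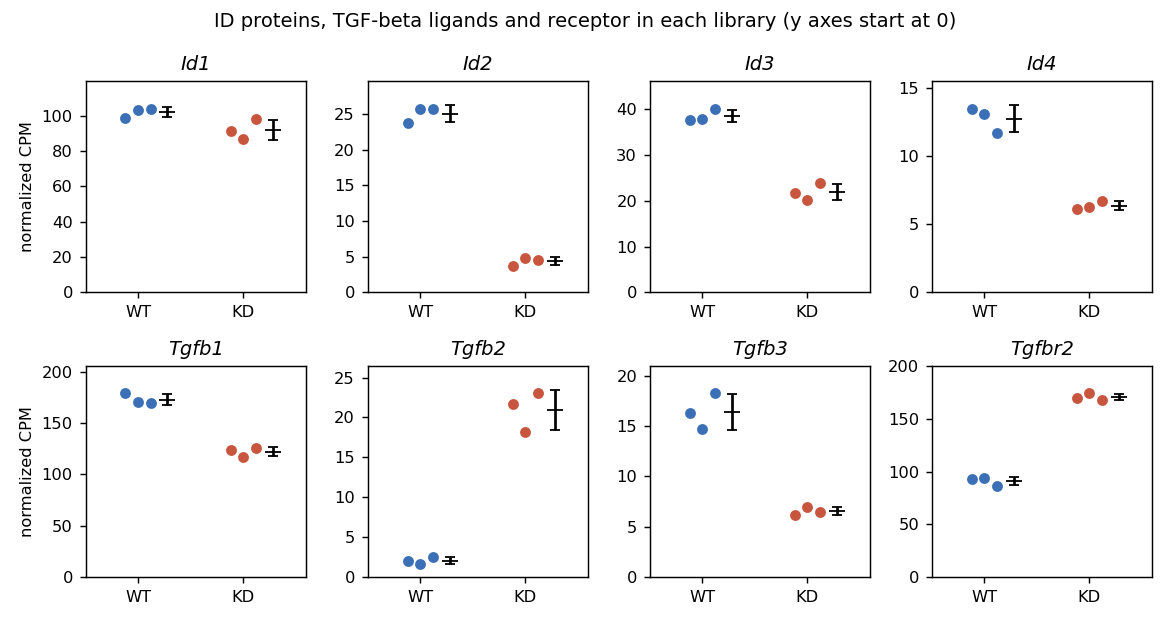
Normalized CPM (y axis, from 0) of the 4 ID genes, the 3 TGF-beta ligands and the receptor Tgfbr2 in each of 3 WT (blue) and 3 LINC00115 KD (red) libraries, with the mean and SD. The 4 ID genes, Tgfb1 and Tgfb3 had all KD libraries below all WT libraries, and Tgfb2 and Tgfbr2 had all of them above.

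TGF-beta is the best known inducer of SNAIL and ZEB genes. Its ligand genes changed in opposite directions: Tgfb1 fell from 173 to 122 CPM (log2 fold change -0.50), Tgfb3 fell from 16.4 ± 1.79 to 6.53 ± 0.371 CPM (-1.33), and Tgfb2 rose from 2.05 ± 0.409 to 21.0 ± 2.52 CPM (3.35, standard error 0.14, adjusted p = 2.50e-21, edgeR). Tgfb2 had 77, 62 and 93 counts in WT and 841, 667 and 875 in KD. Among receptors and signal carriers, Tgfbr2 rose from 91.2 to 171 CPM (log2 fold change 0.90), Smad2 and Smad4 rose (0.74 and 0.38) and Smad3 fell (-0.38). Smurf1, a ubiquitin ligase of TGF-beta receptors and SMADs, rose (0.73). Of 18 genes of this list tested, 9 rose, 5 fell and 4 did not pass, with a median of 0.10.

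SNAI1 protein recruits chromatin enzymes to its targets. Kdm1a, a histone demethylase, Hdac1, a deacetylase, and Sin3a, a scaffold of deacetylase complexes, also fell (log2 fold changes -0.33, -0.69 and -0.98, Sin3a -1.02 without KD replicate 2). The LIM proteins Ajuba and Limd1, also SNAIL corepressors, rose (1.24 and 0.52), Ajuba from 38.4 ± 2.07 to 90.5 ± 6.10 CPM. The ZEB corepressors Ctbp1 and Ctbp2 rose (0.31 and 0.48). Of the 15 corepressors tested, 5 rose, 9 fell and 1 did not pass, and the median was -0.18. SNAI1 protein is short-lived, marked by the kinase GSK3B for the ubiquitin ligase BTRC. Gsk3b rose (log2 fold change 0.30), Btrc fell from 23.7 to 12.4 CPM (-0.94) and another SNAI1 ligase, Fbxo11, fell (-0.46). Other genes in the list of ubiquitin ligases and kinases of SNAIL proteins did not fall with them. Fbxl5 and Mdm2 rose (0.31 and 0.12), and Fbxl14 and Fbxo45 did not pass (-0.058 and -0.051). Of 17 genes of this list tested, 5 rose, 5 fell and 7 did not pass, none past a fold of 2, and the median was 0.0090.

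**Figure D5:**
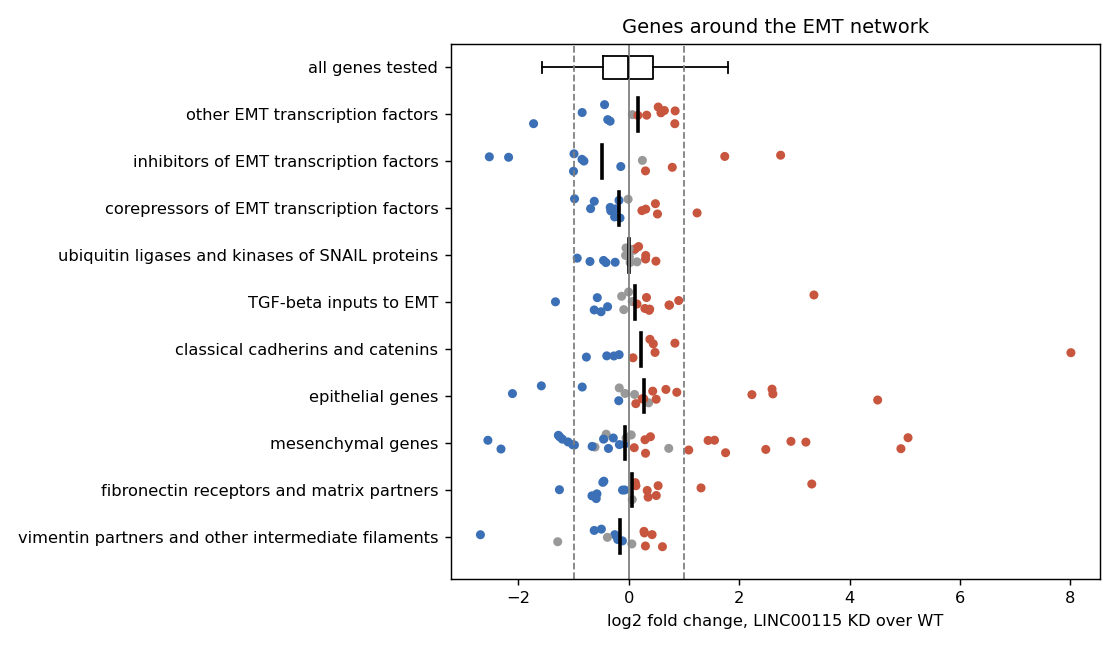
Log2 fold change of LINC00115 KD over WT (x axis) of each tested gene in 10 lists of the EMT network, red where it rose, blue where it fell and grey where it did not pass an adjusted p of 0.05, with the list median as a black bar. The box shows the median and quartiles of all 13497 genes tested and its whiskers the 5th and 95th percentiles, dashed lines mark a fold of 2, and every list holds genes on both sides of 0.

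Catenins tie cadherins to actin. Ctnnb1 (beta-catenin) and Ctnnd1 (p120 catenin) fell from 1604 to 1215 and from 676 to 397 CPM (log2 fold changes -0.40 and -0.77). With Cdh1 and Cdh2 near absence, the only other cadherin of the list with more than 10 counts in any library was Cdh5, the cadherin of endothelial junctions, which had 14, 5 and 6 counts in WT and 2175, 2136 and 2243 in KD. Like Cdh1, it passed the filter on low counts only through the KD libraries. Of 10 genes of this list tested, 6 rose and 4 fell, with Cdh5 alone past both thresholds and a median of 0.23.

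The integrin chains Itga5, Itgav, Itgb1 and Itgb3, which form fibronectin receptors, fell, with log2 fold changes of -0.45, -0.47, -0.11 and -0.67. Not all integrin chains of the list fell: Itgb5 rose from 67.5 to 97.6 CPM (0.53). Itga9 rose from 5, 2 and 1 counts in WT to 35, 35 and 13 in KD, and passed the low-count filter only through the KD libraries. Itga8, another fibronectin-binding chain, fell from 34.3 ± 3.96 to 14.3 ± 0.774 CPM (-1.26), and Tgm2, an enzyme that cross-links fibronectin, rose from 142 ± 2.60 to 351 ± 4.28 CPM (1.31, adjusted p = 8.77e-27, edgeR). Of 17 genes of this list tested, 8 rose, 8 fell and 1 did not pass, with a median of 0.062.

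Mesenchymal genes outside the 10 were split. Of 33 tested, 13 rose, 14 fell and 6 did not pass, 9 were called higher and 7 lower, and the median was -0.072. Among all genes tested, 10.2% were called higher and 9.98% lower. Of the 9 called higher, 6 reached the low-count cutoff in all KD but not in all WT libraries. Among genes whose higher group had no library under 100 counts, the largest falls were those of the protease Mmp9 (149 ± 1.39 to 25.3 ± 1.25 CPM, log2 fold change -2.55), the matrix protein Tnc (39.1 ± 3.26 to 7.85 ± 0.919 CPM, -2.32) and the proteoglycan Dcn (3.93 ± 0.532 to 1.62 ± 0.389 CPM, -1.28). The largest rises were those of the matricellular gene Ccn2 (6.32 ± 0.372 to 211 ± 5.83 CPM, 5.06) and the fibrillin gene Fbn1 (0.610 ± 0.254 to 4.69 ± 0.0173 CPM, 2.94). The protease inhibitor Timp3 had 1, 7 and 9 counts in WT and 135, 188 and 206 in KD, and passed the filter on low counts only through the KD libraries. Among vimentin partners and other intermediate filament genes, 14 were tested, 5 rose, 6 fell and 3 did not pass (median -0.16), and Synm, a filament protein that assembles with vimentin, fell from 12.2 ± 1.26 to 1.89 ± 0.543 CPM (-2.69). Of 10 mammary lineage genes tested, 7 rose and 3 fell, 3 were called higher and 1 lower, against 36.7% in each direction and 10.2% and 9.98% of all genes tested. The 1 called lower, Krt14, had 7, 30 and 192 counts in WT and 31, 28 and 19 in KD. Its groups overlapped, and the high value was that of WT replicate 3. Of the 3 called higher, Trp63 passed the filter on low counts only through the KD libraries. Krt17, a basal keratin, rose from 0.698 to 5.30 CPM.

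Cdh1 was the 1 called gene of the 10, and the genes nearest to it were sought among 9138 genes tested with at least 10 CPM. Over the 6 libraries, by the distance between centred log2 levels, they were Unc13d (distance 0.321), a gene of secretory granule release that rose from 5.67 ± 0.751 to 29.0 ± 1.76 CPM, the interferon-inducible GTPase gene Gbp2 (0.353) and Gm7609 (0.369). Gbp2 rose from 40.4 ± 4.36 to 218 ± 8.54 CPM and Gm7609, whose function is not described here, from 10.8 ± 0.848 to 60.7 ± 3.72 CPM. The 0.1 CPM added before taking logs lies above the WT level of Cdh1 and shrinks its difference, so that these genes, with log2 fold changes of 2.36, 2.43 and 2.49, match the shrunken difference and not the fitted 3.71 of Cdh1. With 2 groups of 3, any gene with a like difference between the groups ranks high.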

How the data were processed

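RNA-seq of 3 LINC00115 KD and 3 WT libraries was analysed from 1 table of counts of reads per gene, which the authors deposited as whole numbers without normalization. The study's methods name HISAT2 with hg19, while the submitters' processing notes name hg38, HISAT2, featureCounts and DESeq2. Both genomes named are human, which conflicts with the mouse gene symbols of the table. The annotation used for counting and the use of strand are not given in the sources used here. All columns matched their samples by name, with 0 columns left unused.

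The quasi-likelihood test of edgeR 4.0.16 (R 4.3.3) was fitted with the group as the only term, after filterByExpr (minimum count 10, minimum total 15) and TMM, with Benjamini-Hochberg adjustment over 13497 genes. Genes rose or fell at an adjusted p under 0.05, and were called at a fold change over 2 as well, the study's thresholds. Standard errors are the absolute log2 fold change over the root of F. Totals of 36979221 to 38799331 counts set the precision. Likeness was the Euclidean distance of log2(CPM + 0.1), centred over the libraries. The 10 genes and the 19 lists were chosen with earlier results of these data known. From each list, up to 3 called genes each way are named, if no library of their higher group had under 100 counts. Alternatives were DESeq2 1.42.0, other scalings, filters and thresholds, each replicate left out and the replicate number as a block. The fit was tested on simulated counts of this comparison (13480 genes tested), in which 66 of 67 genes changed 1.5-fold were recovered. Same-numbered libraries did not deviate together (correlations 0.0135, -0.0194 and -0.0202).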

Additional observations from a re-analysis of the deposited data

How the results depend on the processing

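No direction of the 7 genes tested was reversed under any alternative. The small rise of Vim varied with the scaling. Its log2 fold change was 0.087 under upper-quartile scaling (adjusted p = 0.00316, edgeR) and 0.11 with library totals only, against 0.13 with TMM. With each replicate left out, log2 fold changes ranged from -0.89 to -0.78 for Snai1, 0.63 to 1.09 for Zeb1, 0.40 to 0.46 for Zeb2, 0.33 to 0.40 for Twist1, 3.41 to 4.10 for Cdh1, 0.12 to 0.15 for Vim and -0.48 to -0.41 for Fn1, 1 to 2 of the 10 genes were called higher and 0 lower, and Zeb1 without KD replicate 3 was the added call. Without the fold-change threshold, Snai1 (-0.85), Zeb2 (0.43), Twist1 (0.36), Vim (0.13) and Fn1 (-0.45) passed, so that 2 of the 10 were lower and 4 higher, and of all genes 4960 were lower and 4952 higher. Tested by glmTreat against a fold change of 1.5, Snai1 (-0.85) was the 1 lower gene and Cdh1 the 1 higher. Under a filter of at least 10 counts in all 6 libraries, 0 of the 10 and 903 of all genes were called higher, because this filter removes Cdh1 and other genes with few counts in a group, and Zeb1 reached an adjusted p of 0.0293 (edgeR).

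Recounting that rule without a fold threshold under the other settings was added after the data were seen, and with each replicate left out 2 of the 10 were lower and 4 to 5 higher. With the replicate number as a block, an unpaired number here, 0 of the 10 were lower and 1 was higher, 1316 and 1360 of all genes were lower and higher, and Zeb1 had a log2 fold change of 0.77. Called counts of all genes were 1347 and 1381, and the alternatives not named here stayed within 1.5 times these. The ratio of Cdh1 to Cdh2 had no value under any setting because Cdh2 had no count in most libraries. Depth limits Cdh1, Cdh2, Snai2 and Zeb1.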
